A study of Mus musculus with 59 samples.

Results

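The non-cachectic diaphragm libraries of this series fell into 2 states, read from a single transcript. Of 59 libraries in all, 19 came from the diaphragm of mice with a melanoma that does not cause muscle wasting. These were divided by the level of Pcna-ps2: 9 libraries above 3 TPM formed the high state and 10 libraries at 3 TPM or less formed the low state. TPM is a transcript abundance scaled per transcript length and to the same total in each library, so it keeps no trace of sequencing depth.

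RNA-seq was carried out on muscles of mice bearing 1 of 2 human melanoma xenografts, a cachectic and a non-cachectic one; cachexia is the loss of muscle that accompanies some cancers. The study asked whether recombinant Fibcd1 (rFibcd1), a protein secreted by muscle, alters the diaphragm of such animals. All mice were female NCI Ath/nude animals, 4 months old by the labels, and athymic nude mice form few T cells but keep B cells. The 19 libraries were labelled as 9 from mock-treated and 10 from rFibcd1-treated mice, and the remaining 40 were 20 of cachectic diaphragm, 10 of tibialis anterior and 10 of soleus. Each melanoma was represented by 1 xenograft, so cachexia cannot be told apart from other differences between the tumors. The labels gave the same strain name for every library and no batch, and do not name the states. Libraries are called below by their treatment and the number in their column name, and nothing in the labels links that number to a replicate.

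Pcna-ps2 is a processed pseudogene, a copy of an mRNA that was reverse transcribed and inserted elsewhere in the genome. Its parent gene Pcna encodes the sliding clamp that holds DNA polymerases on the template. Such copies have no introns and resemble the mRNA, so that reads from parent and copy can be separated only where the sequences differ. Pcna-ps2 lies on chromosome 19 (9283380 to 9284160, plus strand, GRCm38), and its 781 annotated bases aligned to bases 280 to 1060 of the Pcna mRNA without gaps, with 6 mismatches (99.2% identity) and a longest identical run of 246 bases. The first 240 bases of the pseudogene (chr19:9283380-9283619, plus strand) and the matching stretch of the Pcna mRNA, both as annotated in GENCODE M21, are shown because the whole division rests on reads that tell them apart. Capitals mark the 2 positions in this stretch at which they differ.
Pcna-ps2: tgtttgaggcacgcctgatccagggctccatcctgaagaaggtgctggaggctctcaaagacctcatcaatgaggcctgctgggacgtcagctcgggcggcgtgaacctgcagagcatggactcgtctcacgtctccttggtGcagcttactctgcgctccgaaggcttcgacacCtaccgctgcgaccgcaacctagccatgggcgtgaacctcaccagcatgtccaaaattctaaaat
Pcna: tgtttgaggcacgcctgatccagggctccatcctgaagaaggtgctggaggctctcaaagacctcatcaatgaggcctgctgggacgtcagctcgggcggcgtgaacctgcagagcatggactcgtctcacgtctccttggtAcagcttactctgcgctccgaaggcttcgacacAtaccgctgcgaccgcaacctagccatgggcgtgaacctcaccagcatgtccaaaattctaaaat

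Pcna-ps2 was at 8.07 to 12.01 TPM in the high state (median 9.71, n = 9) and at 0 to 0.0802 TPM in the low state (median 0, n = 10). In mock-treated animals it stood at 9.83, 8.07 and 8.97 TPM in libraries 66, 68 and 70, and was listed at 0 in the other 6 (61 to 65 and 67). In rFibcd1-treated animals it stood at 9.31, 9.70, 10.3, 12.01, 9.71 and 11.3 TPM in libraries 47, 49, 50, 56, 59 and 60. The other 4 rFibcd1 libraries were 46 at 0.0802 TPM, 57 at 0.0394 TPM, and 48 and 58, both listed at 0. No library lay between 0.0802 and 8.07 TPM, so cutoffs of 1 or 5 TPM gave the same division. These levels chose the states and are a description.

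**Figure D1:**
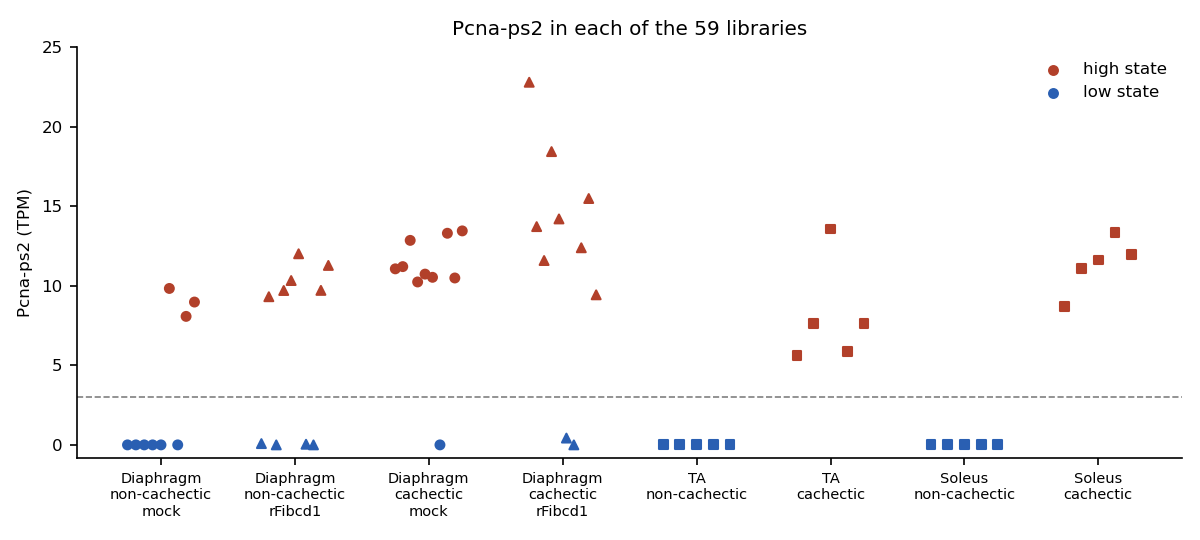
Pcna-ps2 in TPM (vertical axis) in each of the 59 libraries, grouped by muscle, melanoma and treatment; red points are high-state and blue points low-state libraries, and the dashed line marks 3 TPM. In the non-cachectic diaphragm 3 of 9 mock and 6 of 10 rFibcd1 libraries lie above the line.

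The parent gene did not divide in this way. Pcna was at 13.5 to 21.8 TPM in the high state (median 17.6) and at 18.5 to 19.9 TPM in the low state (median 19.2). The groups overlapped, and the low-state libraries lay inside the range of the high-state ones. The log2 difference (high minus low) of Pcna was -0.19 ± 0.06 (SE), with an adjusted p of 0.0265 in limma. It lost the call without mock library 70 (adjusted p = 0.0636) and within the rFibcd1 libraries (adjusted p = 0.610).

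Both states occurred under both treatments. High-state libraries were 3 of 9 with mock and 6 of 10 with rFibcd1 treatment (Fisher's exact test, two-sided p = 0.370), which does not show that the shares were equal. A division of the same kind was present in the rest of the series. In the cachectic diaphragm 17 of 20 libraries were above 3 TPM and 3 were low (mock 22, rFibcd1 11 and rFibcd1 14). In tibialis anterior and soleus the 5 cachectic libraries of each muscle were high and the 5 non-cachectic ones low, so there the state and the melanoma cannot be told apart. In all, 10 column numbers occurred in all 3 muscles, and each of the 10 carried 1 state in its 3 libraries. Numbers 6 to 10 were high and 61 to 65 low, and whether equal numbers stand for the same animal is not stated in the labels.

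Some libraries stood apart within their state. Muscle transcripts were abundant in both states: Myh2, a fast oxidative myosin, was at 1830 to 2985 TPM in the high and 2325 to 3381 TPM in the low state, and Ckm, the muscle creatine kinase, at 4368 to 6022 and 4225 to 5947 TPM. No limb-muscle values were set beside these, so they do not show diaphragm identity. Of 6 muscle genes checked, 1 was called lower in the high state in limma, beside 2.38% of all genes. Over all genes tested, the first principal component held 40.8% of the variance and the second 16.7%. On the first, 8 of the 9 high-state libraries had positive scores, up to 70.7 in rFibcd1 library 56, but high-state mock library 70 scored -17.1, among the low-state libraries (-36.9 to 0.8). Mock library 64 stood alone on the second component (55.3) and held the liver transcript Alb (albumin) at 5724 TPM, against 3.66 to 147 TPM in the other low-state libraries. Mock library 63 held the immunoglobulin light-chain transcript Igkc at 1475 TPM, and rFibcd1 library 56 held it at 4137 TPM. The median of Igkc was 46.8 TPM in the low and 181 TPM in the high state. Markers of liver and of B and plasma cells varied widely within both states. The summed level of 9 B and plasma cell markers ranged from 25.7 to 7977 TPM in the high and from 23.4 to 2223 TPM in the low state. That of 10 liver markers ranged from 2.42 to 874 and from 9.98 to 10807 TPM, and of 9 adipocyte markers from 761 to 7275 and from 714 to 2404 TPM. In bulk tissue, a change in the number of cells of a type and a change in RNA per cell cannot be told apart.

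A group of genes divided the 19 libraries exactly as Pcna-ps2 did. The 2 states did not overlap for 415 of 12541 genes tested (3.31%), 367 higher in the high state (2.93%) and 48 lower (0.383%). Of these, 62 genes (0.494%) also had log2(TPM + 1) means at least 1 apart: Pcna-ps2 itself and 61 others, of which 45 were higher and 16 lower in the high state (with Pcna-ps2, 0.367% of genes tested were higher and 0.128% lower by this rule). They are called two-state genes below, and their levels in these 19 libraries are given without a test, since the libraries were divided on a transcript of the same data.

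**Figure D2:**
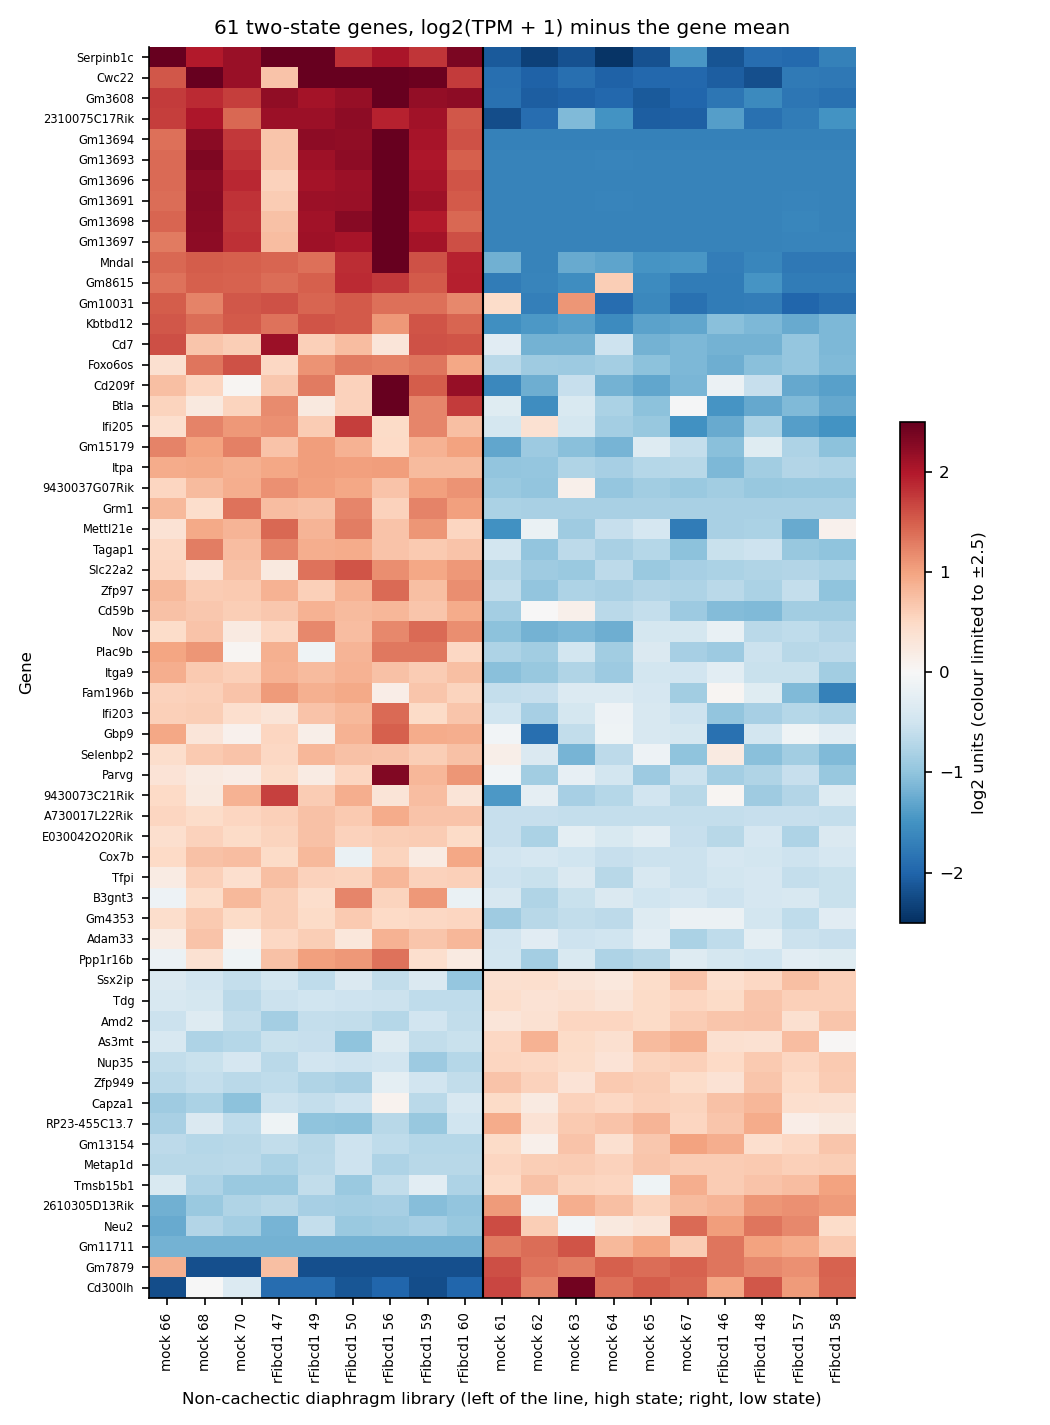
The 61 two-state genes (vertical) in the 19 non-cachectic diaphragm libraries (horizontal), as log2(TPM + 1) minus the mean of each gene over the 19 libraries; colours are limited to ±2.5 log2 units, the vertical line separates high-state from low-state libraries and the horizontal line the 45 higher from the 16 lower genes. Gm8615 in mock library 64 and Gm10031 in mock libraries 61 and 63 are raised among the low-state libraries.

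The largest difference on the log2(TPM + 1) scale, which understates changes from very low levels, was that of Serpinb1c, a member of the clade B serpins, which inhibit proteases inside cells. It was at 21.8 to 50.1 TPM in the high state (median 28.6) and at 0.216 to 1.43 TPM in the low state (median 0.516), a log2 difference of 4.27 ± 0.16 (SE). Gm3608, an annotated pseudogene, went from 0.203 to 0.709 TPM in the low to 16.1 to 34.6 TPM in the high state. The long non-coding RNA 2310075C17Rik went from 0.151 to 1.52 to 13.5 to 24.5 TPM. Both had narrow ranges within a state next to the distance between the states.

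Cwc22, a spliceosome factor that also loads the exon junction complex onto mRNA, rose from 3.21 to 4.67 TPM in the low state (median 3.96) to 30.4 to 161 TPM in the high state (median 104). The high-state libraries differed from each other more than the low-state ones: rFibcd1 library 47 was lowest at 30.4 TPM and rFibcd1 library 56 highest at 161 TPM. A set of 6 annotated genes on the same chromosome, Gm13691, Gm13693, Gm13694, Gm13696, Gm13697 and Gm13698, rose with it, from at most 0.0199 TPM to between 3.70 and 19.5 TPM, and Gm13694 and Gm13696 were listed at 0 in all low-state libraries. Their annotated transcripts did not differ from each other in any base, and 62.8% of the 31-base words in each were also found in Cwc22 transcripts. Values of these 6 genes are therefore not separate measurements, and they cannot be told apart from each other.

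The p200 family, DNA-binding proteins that interferon induces, supplied 3 neighbouring genes on chromosome 1 (173849126 to 174031810). Mndal was at 11.01 to 27.9 TPM in the high and 0.344 to 1.02 TPM in the low state. Ifi203 was at 11.1 to 25.1 and 3.95 to 7.94 TPM, and Ifi205 at 5.11 to 14.1 and 0.605 to 4.98 TPM. The gap was wide for Mndal and narrow for Ifi205.

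Genes of varied function were among the two-state genes. Kbtbd12, which encodes a kelch and BTB domain protein, was at 42.1 to 59.6 TPM in the high state (median 58.2) and 5.91 to 8.94 TPM in the low state (median 7.18). Cox7b, a subunit of respiratory complex IV, was at 851 to 1858 TPM (median 1398) and 642 to 711 TPM (median 679), with a spread in the high state that the low state lacked. Mettl21e, a lysine methyltransferase of skeletal muscle, was at 23.1 to 50.2 and 4.5997 to 19.1 TPM. Itga9, the integrin alpha 9 subunit, was at 16.6 to 20.98 and 4.69 to 8.67 TPM. Itpa, which removes inosine triphosphate from the nucleotide pool, was at 17.7 to 21.5 TPM (median 19.98) and 3.98 to 5.70 TPM (median 5.25), so that its groups were far apart. Tfpi, an inhibitor of the tissue factor pathway of coagulation, was at 6.99 to 11.3 and 3.32 to 4.43 TPM.

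Several two-state genes encode receptors of immune cells. Cd7, a surface protein of T and natural killer cells, was at 1.90 to 9.40 TPM in the high and 0.0422 to 0.958 TPM in the low state. Btla, an inhibitory receptor of lymphocytes, was at 3.18 to 25.4 and 0.205 to 2.46 TPM, and Cd209f, a C-type lectin, at 3.01 to 26.0 and 0.273 to 2.49 TPM. For Btla and Cd209f the highest library was rFibcd1 56. The 9 T cell markers were all too low to be tested. Their summed level was 2.21 to 34.1 TPM in the high state (median 12.2) and 1.07 to 15.96 TPM in the low state (median 2.01), and their part in these values was not tested.

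The 16 genes that were lower in the high state had varied functions, and no shared function was tested. Metap1d, which removes the first methionine from mitochondrial proteins, was at 6.53 to 8.17 TPM in the high (median 7.13) and 18.01 to 20.2 TPM in the low state (median 19.3). Capza1, an actin capping subunit, was at 6.81 to 16.04 TPM (median 9.58) and 17.6 to 27.2 TPM (median 22.1). As3mt, an arsenic methyltransferase, was at 18.4 to 30.5 and 39.2 to 71.1 TPM. Tdg, a thymine DNA glycosylase of base excision repair, was at 3.31 to 4.21 and 7.63 to 10.1 TPM, Nup35, a nuclear pore protein, at 0.902 to 1.66 and 3.55 to 4.67 TPM, and Neu2, the cytosolic sialidase, at 0.120 to 0.761 and 1.55 to 7.25 TPM. Cd300lh, of the CD300 family of immune receptors, was at 0 to 3.67 TPM and 8.11 to 23.7 TPM. Gm11711 was listed at 0 in all high-state libraries and was at 2.499 to 5.75 TPM in the low state. Capza1 was also on the list of genes named by the study for this model. Of 7 members of that list tested, 1 was called here, Capza1, against 36.9% of all genes.

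Genes with smaller or less complete differences were called as well. Rpl34, a protein of the large ribosomal subunit, was at 25.1 to 38.2 TPM in the high and 50.3 to 59.7 TPM in the low state, and the pseudogene Ube2d-ps at 13.1 to 16.03 and 24.9 to 31.3 TPM, with no overlap for either. Hist1h2al, a histone H2A gene, was at 0 to 67.7 and 4.58 to 50.9 TPM, and Myh8, the perinatal myosin, at 31.6 to 54.6 and 0.341 to 54.1 TPM. Both overlapped, and within the rFibcd1 libraries neither was called (adjusted p = 0.177 and 0.0760 in limma). Tmem45b, a transmembrane protein, was at 4.16 to 108 and 0.0631 to 5.78 TPM, and within the mock libraries its adjusted p was 0.210.

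Several two-state genes were neighbours on a chromosome. Of 62, 61 were placed, on 18 chromosomes, with 16 on chromosome 2. In all, 19 of the 61 (31.1%) lay within 1 Mb of another two-state gene, in 6 clusters, while 6.27% of the other tested genes lay within 1 Mb of one. With the 6 identical genes counted once, the share was 14 of 56 (25%). The 6 Gm1369 copies and Tfpi formed the largest cluster, at 83955693 to 84476775 of chromosome 2, and Itpa, A730017L22Rik and Adam33, a metalloprotease, another at 130667610 to 131063814 of the same chromosome. Pairs of lower genes were Gm11711 with Cd300lh on chromosome 11 (115031447 to 115048419) and Gm13154 with 2610305D13Rik on chromosome 4 (147553277 to 147642508). In these 4 clusters and in the p200 cluster all members moved in the same direction. On chromosome 9, Zfp949, a zinc finger gene (4.19 to 6.68 in the high and 10.5 to 13.9 TPM in the low state), and the neighbouring 9430037G07Rik (1.87 to 3.38 and 0 to 1.18 TPM) moved in opposite directions. These 6 clusters are counted on genes chosen for their levels and are a description.

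Their annotation differed from that of all genes tested in several ways. Of the 56 two-state genes with an entry in GENCODE M21, 82.1% were protein coding, against 96.2% of all genes tested. Genes whose transcripts shared at least 50% of their 31-base words with transcripts of other genes made up 35.7% against 3.9%, or 29.4% with the 6 identical genes counted once. Gene models without a functional name (Gm or Rik) made up 30.4% against 4.8%, and pseudogenes 5.4% against 0.7%. Pcna-ps2, which chose the states, is counted among these 56 genes. It is 1 of the 3 pseudogenes and, with 76.3% of its words shared, also 1 of the genes with shared words. Overlap with a gene on the opposite strand was not more frequent (35.7% against 43.8%). For genes with near-identical copies, such as Amd2, Plac9b, Zfp97, Tagap1 and Gm4353, reads could have been divided between copies during counting, and their values are uncertain in that respect. The same doubt holds for Capza1 and Tdg, with 80.1% and 66.4% of their words shared.

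The cachectic diaphragm libraries took no part in choosing these genes. There the cut at 3 TPM of Pcna-ps2 gave 17 high-state and 3 low-state libraries. All 61 two-state genes differed in the same direction, and 45 of them did not overlap between the states, 36 higher and 9 lower, where 12.9% of all genes tested did not overlap and were higher and 0.187% were lower. In limma, 55 of the 58 two-state genes that passed the filter were called in the same direction, against 47.1% of all genes (46.4% higher and 0.768% lower). The other 3 tested were Plac9b, Gm7879 and 9430073C21Rik. Gm13154, Neu2 and Gm11711, all lower in the high state, did not pass the filter, and Neu2 and Gm11711 overlapped. The filter asks for 1 TPM in 3 libraries. Of genes under 1 TPM in the high state it keeps only those that all 3 low-state libraries hold at 1 TPM or more. With the 6 identical genes counted once, 40 of 56 did not overlap and 50 of 53 were called. The share of all genes depended on rFibcd1 library 11, without which 5.38% of all genes (769 of 14292) but 48 of 59 two-state genes (43 of 54 counted once) were called. After median-ratio scaling the counts were 50 of 59 (45 of 54 counted once), against 13.9% of all genes. A test of whether the state difference itself differed between the melanomas called 903 of 14302 genes (6.31%) in limma, and 0 without rFibcd1 library 11, where 1113 had an unadjusted p under 0.05.

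**Figure D3:**
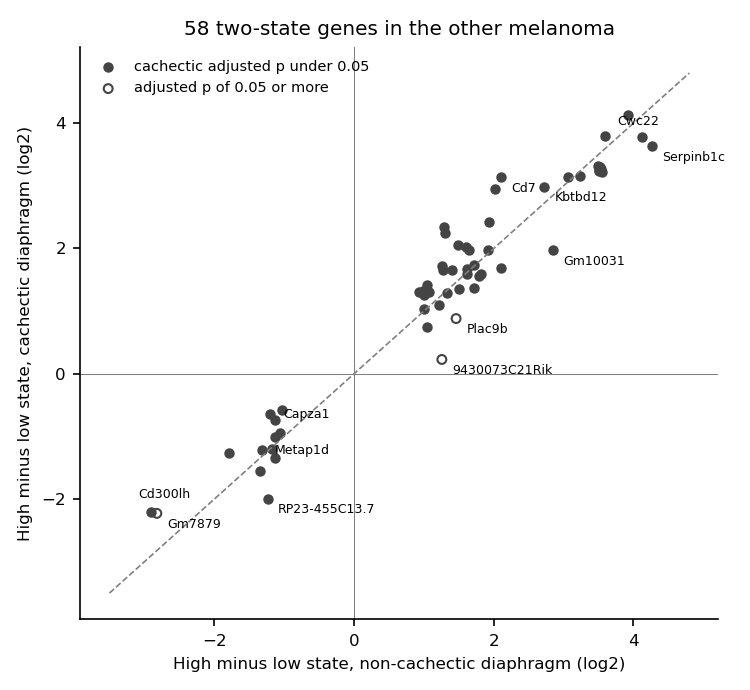
Log2 difference between the high and low states of 58 two-state genes in the non-cachectic (horizontal axis, the difference that chose the genes) and the cachectic diaphragm (vertical axis); filled points had an adjusted p under 0.05 in the cachectic libraries, open points did not, and the dashed line marks equal differences. All 58 points lie in the quadrants of equal sign.

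Single genes are given side by side for the 2 melanomas. Kbtbd12 differed by 2.98 on the log2 scale there (adjusted p = 5.21e-11, limma) and by 2.72 in the non-cachectic diaphragm, Metap1d by -1.21 (adjusted p = 9.75e-07) and -1.31, and Itpa by 1.56 (adjusted p = 7.70e-08) and 1.79. Serpinb1c differed by 3.63 (adjusted p = 7.03e-05) and 4.27. Capza1 differed by -0.64 (adjusted p = 0.0253), and its groups overlapped. The antisense transcript 9430073C21Rik differed by 0.23 (adjusted p = 0.558), against 1.26 in the non-cachectic diaphragm. In the limb muscles, where the state and the melanoma coincide, 48 of the 61 did not overlap in the same direction in tibialis anterior and 44 in soleus, and 40 in both (43, 39 and 35 of 56 counted once). Among all genes tested, 46.1% were higher and 2.42% lower without overlap in tibialis anterior, and 13.8% and 5.34% in soleus.

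Within the low state, single diaphragm libraries departed from the rest in some genes, and for a minority of these the limb muscles were divided by the same numbers. Among low-state libraries 61 to 65, 152 genes had a gap of at least 2 on the log2(TPM + 1) scale between neighbouring diaphragm libraries, and the same numbers lay on the same side for 46 of them in tibialis anterior, for 22 in soleus and for 17 in both, and how many would match by rank alone was not tested. That count needs no gap in the limb muscles, and 11 of the 17 had a gap of at least 1 on the same scale in each. Gm10031 was at 6.12 and 10.2 TPM in diaphragm libraries 61 and 63 and at 0.386 to 0.710 TPM in the other 3. In tibialis anterior it was at 7.29 and 12.4 TPM in numbers 61 and 63, and in soleus at 7.08 and 12.8 TPM. Gm8615, a pseudogene, was raised in number 64 alone, to 4.10 TPM in diaphragm, 2.43 TPM in tibialis anterior and 3.68 TPM in soleus.

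Genes outside the two-state set behaved likewise. C1s1, a serine protease of the complement pathway, was listed at 0 in diaphragm library 63 and was at 40.6 to 60.4 TPM in the other 4, and number 63 was also lowest in tibialis anterior (0.0182 TPM) and soleus (0.0536 TPM). Gm8730 was at 0.0917, 0.224 and 0.299 TPM in number 61 of the 3 muscles and at 34.4 TPM or more in the others. Gm11716 was at 0.350 TPM or less in numbers 61 and 62 and at 22.6 TPM or more in numbers 63 to 65. Tpm3-rs7, a copy related to tropomyosin 3, was at 0.295 TPM or less in numbers 61 and 64 and at 4.53 TPM or more in the rest. The liver transcript Alb, at 5724 TPM in diaphragm library 64, was at 0.207 TPM in number 64 of tibialis anterior, the highest of the 5 there (0.0243 to 0.124 TPM in the others), and at 0.193 TPM in soleus, where other numbers were higher. Several liver genes are therefore among the 46 matches at levels near 0. These genes were chosen after their values were seen.

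**Figure D4:**
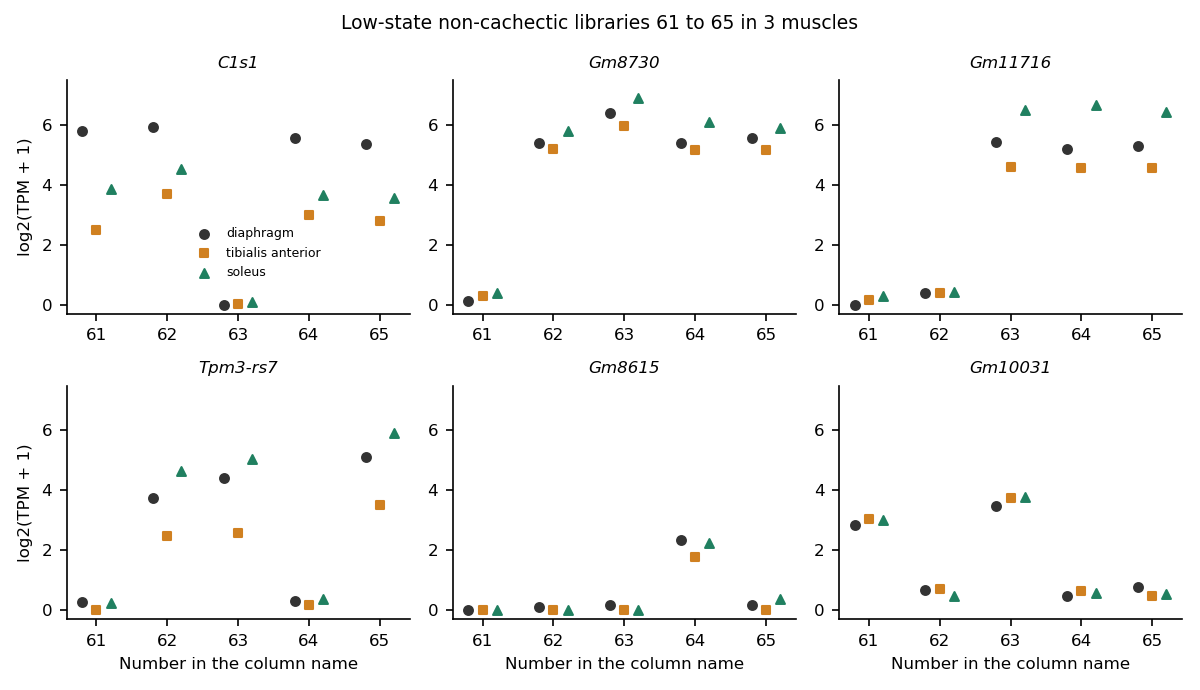
Levels of 6 genes, as log2(TPM + 1), in low-state non-cachectic libraries with column numbers 61 to 65; circles are diaphragm, squares tibialis anterior and triangles soleus. For each gene the same numbers are low or high in all 3 muscles, such as number 63 for C1s1 and number 61 for Gm8730.

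Over all genes tested, the two-state genes included, the states differed by small amounts in many genes, and the direction depended on scaling. With TPM as deposited, 4629 of 12541 genes (36.9%) had an adjusted p under 0.05 in limma with treatment as a term, 4330 of them higher and 299 lower, but only 173 of the calls exceeded 1 on the log2 scale (147 higher and 26 lower). The median log2 difference of all genes was 0.14. After median-ratio scaling, which centres the genes, it was -0.01 and 1481 genes (11.8%) were called, 588 higher and 893 lower. Within mock libraries 605 genes (4.72%) and within rFibcd1 libraries 3620 genes (27.9%) were called. The interaction of state and treatment, a test of whether the state difference differed between mock and rFibcd1 libraries, was called for 0 of 13583 genes in limma, with 2192 at an unadjusted p under 0.05.

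The composition of the libraries moved with the state. Mitochondrial transcripts took 42.9% ± 2.24 of TPM in the high state (SD, n = 9) and 48.1% ± 2.12 in the low state (SD, n = 10), a difference of -5.21 percentage points (exact permutation test, two-sided p = 0.000173, adjusted over 4 measures 0.000289). The ranges, 39.3% to 46.8% and 45.0% to 51.9%, overlapped. The 10 most abundant genes took 41.7% ± 2.07 (SD, n = 9) and 46.1% ± 1.77 (SD, n = 10), lower in the high state, at -4.49 points (two-sided exact permutation test, p = 0.000217, adjusted p = 0.000289). This share lay close to the mitochondrial one, such as 37.9% beside 39.3% in rFibcd1 library 56 and 49.5% beside 51.9% in mock library 62. It is not read as a separate change. Cytosolic ribosomal protein genes took 2.43% ± 0.275 (SD, n = 9) and 2.05% ± 0.0734 (SD, n = 10) without overlap, and were higher in the high state by 0.385 points (two-sided exact permutation test, p = 2.17e-05, adjusted p = 8.66e-05). Genes above 0 numbered 18773 ± 373 (SD, n = 9) and 18492 ± 205 (SD, n = 10), a difference of 281 (exact permutation p = 0.0531, adjusted 0.0531). The first 3 measures differed within the 10 rFibcd1 libraries (exact permutation p = 0.00952 each, adjusted 0.0127). Within the 9 mock libraries (3 high, 6 low) their adjusted exact permutation p was 0.0952. The ribosomal protein share did not overlap there, at 2.18% to 2.33% and 1.91% to 2.13%. Its unadjusted exact permutation p of 0.0238 is the lowest that 3 against 6 libraries allow, so the missed threshold does not show that the states were alike. In the cachectic diaphragm the mitochondrial share differed by -0.77 points (exact permutation p = 0.788, n = 17 and 3). The ribosomal protein share there was lower in the high state, 3.29% against 3.96%, the opposite direction (exact permutation p = 0.253, adjusted 0.337), and the share of the 10 most abundant genes differed by -3.35 points (exact permutation p = 0.132, adjusted 0.263). Genes above 0 were higher by 740 in the high state and passed the test (exact permutation p = 0.00175, adjusted 0.00702). In both melanomas the number of genes above 0 can follow sequencing depth, which is unknown.

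**Figure D5:**
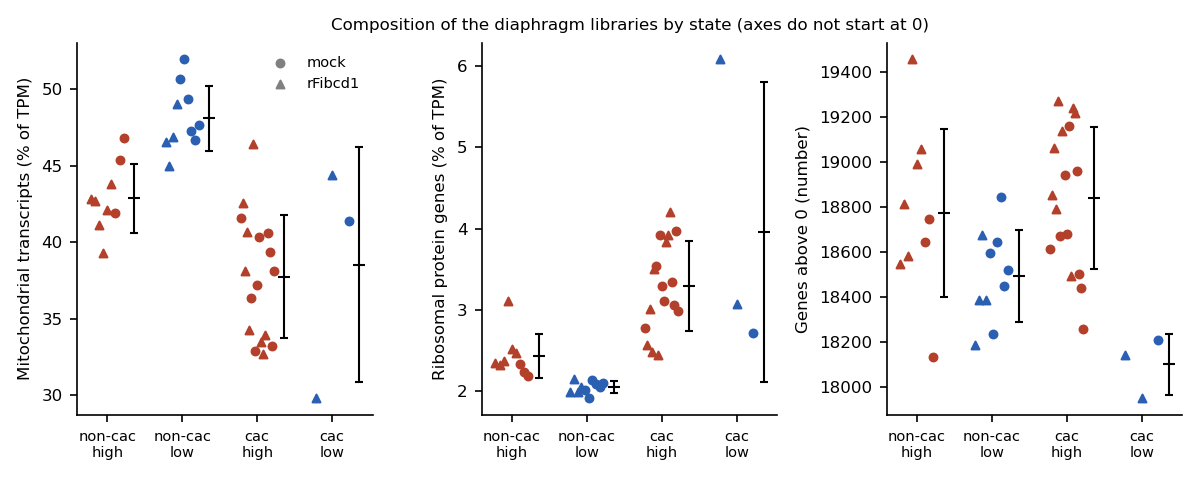
Share of TPM taken by mitochondrial transcripts and by cytosolic ribosomal protein genes, and the number of genes above 0, in the diaphragm libraries by melanoma (non-cac, non-cachectic; cac, cachectic) and state; circles are mock and triangles rFibcd1 libraries, and bars give the mean ± SD. Axes do not start at 0. In the non-cachectic diaphragm the ribosomal protein share does not overlap between the states, at 2.18% to 3.11% and 1.91% to 2.15%.

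Gene groups were read against that scaling. Of 13 mitochondrially encoded genes, 9 were lower in the high state and none higher with TPM as deposited, and 12 were lower after median-ratio scaling. One of them, mt-Nd5, of complex I, at 9073 to 10641 TPM in the high and 11547 to 13892 TPM in the low state. Of 83 cytosolic ribosomal protein genes, 66 were higher and 1 lower, with a median log2 difference of 0.23, but 5 were higher and 2 lower after scaling. Of 37 nuclear genes of complex I, 13 were higher and none lower, and 1 each way after scaling. Of 37 proteasome genes, 23 were higher, and 0 higher and 3 lower after scaling. Of 25 splicing factors, 18 were higher, and 0 in either direction after scaling. For the nuclear groups most calls were lost with the scaling. Beside these counts, 34.5% of all genes were called higher and 2.38% lower with TPM as deposited, and 4.69% and 7.12% after scaling.

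Genes of the major histocompatibility complex (MHC), which present peptides to T cells, had the largest median difference of the gene groups tested. Of 15 MHC class I and II genes tested, 14 were higher and none lower with TPM as deposited (median log2 difference 1.25), and 11 were higher after median-ratio scaling (median 1.08). H2-Aa, a class II chain, was at 63.8 to 554 TPM in the high state (median 171) and 23.2 to 211 TPM in the low state (median 53.4), and B2m, the light chain of class I, at 592 to 2161 TPM (median 1062) and 279 to 1193 TPM (median 403). The groups overlapped for both, with mock libraries 61 and 64 high among the low-state ones. Of 24 interferon-response genes tested, 11 were higher and none lower, and 2 were higher after scaling, beside 34.5% and 4.69% of all genes. The 2 were Gbp2, an interferon-induced GTPase (37.4 to 112 and 14.3 to 51.9 TPM, log2 difference 1.41 ± 0.25, SE), and Ifi27 (61.1 to 178 and 43.5 to 68.8 TPM, 0.73 ± 0.16).

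The MHC genes were also compared within each treatment. Within the rFibcd1 libraries 15 of 15 MHC genes and 24 of 25 interferon-response genes were called higher, against 26.5% of all genes. Within the mock libraries 0 of 15 and 0 of 25 were called, against 3.83%, with a median log2 difference of 0.48 for the MHC genes. The interaction of state and treatment did not pass adjustment: the state difference in rFibcd1 minus that in mock libraries was for H2-Aa 1.80 ± 0.72 on the log2 scale (SE, adjusted p = 0.300 in limma) and for B2m 1.47 ± 0.53 (adjusted p = 0.300). In the cachectic diaphragm 14 of 15 MHC genes were called higher, against 46.4% of all genes, and 4 of 15 without rFibcd1 library 11, against 5.1%. Of cells that carry these proteins, 2 of 11 macrophage markers were called higher (summed level 252 to 1952 TPM, median 840, against 348 to 883 TPM, median 508) and 1 of 9 B and plasma cell markers, against 34.5% of all genes. Their part in the MHC values was not tested.

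The remaining groups are read against 34.5% of all genes called higher and 2.38% called lower. The median log2 difference was 1.17 for 3 neutrophil markers tested, of which 2 were called higher, 1.15 for 9 B and plasma cell markers and 1.14 for 7 adipocyte markers tested, of which 2 were called higher. None of these was called after median-ratio scaling. Of 21 collagen and matrix genes 1 was called lower. Of 7 tendon markers tested 3 were lower, and 4 after scaling: in TPM as deposited these were Kera, Chad and Comp, matrix proteins of tendon and cartilage, with log2 differences of -0.91 ± 0.29, -0.91 ± 0.28 and -0.46 ± 0.15 (SE), and the summed level of that list was 88.8 to 210 TPM in the high and 82.7 to 204 TPM in the low state. Of 10 slow-fibre genes 2 were lower. Of 19 clock genes 3 were higher, Arntl, Clock and Cry1, and none after median-ratio scaling. Red blood cell markers were higher for 4 of 6 genes tested, and none after scaling.

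The labelled comparison was fitted with and without the state. With rFibcd1 against mock treatment, 2453 of 12541 genes (19.6%) were called in limma without the state in the fit, 1489 (11.9%) with the state as a term, 96 within the 10 low-state and 3 within the 9 high-state libraries. Other choices moved the first count as far or further, to 936 without mock library 62, 3844 without rFibcd1 library 58 and 314 after median-ratio scaling. Genes of the circadian clock were among these calls. Dbp, a transcription factor driven by the clock, differed by -2.46 ± 0.43 (SE) on the log2 scale without and by -2.32 ± 0.44 with the state as a term, and Arntl, the core activator of the clock, by 2.25 ± 0.31 and 2.04 ± 0.28.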

How the data were processed

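RNA-seq libraries of 3 mouse muscles were analysed from 1 table of 47643 genes and 59 libraries. The deposited values are TPM, which the authors made with CLC Genomics Workbench on GRCm38/mm10 by the study's methods; the annotation and strand setting are not given in the sources used here, and labels and methods differ on kit and instrument. TPM totals do not give depth, so depth is unknown and no counting interval is given. All columns were mapped to groups (0 unmapped, 0 identical), but column numbers were not tied to labelled replicates, and p-values measure the spread between these libraries.

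Values were analysed as log2(TPM + 1), which understates changes of low genes. Genes with at least 1 TPM in as many libraries as the smallest group of a fit (9 for the state and treatment differences in non-cachectic diaphragm, 3 for the cachectic and interaction fits) were tested with limma 3.58.1 (R 4.3.3), with treatment as a term and Benjamini-Hochberg adjustment at 0.05. Shares of TPM were compared by two-sided exact permutation tests (scipy 1.17.1, Python 3.11.15). States were read from a measured gene, so adjusted p-values of the state in non-cachectic diaphragm only describe separation against spread. The states, genes and lists were chosen with earlier results of these data known. Named genes were Pcna-ps2, Pcna, two-state genes, the 15 highest and 15 lowest called genes with a mean of at least 5 TPM (5 each way in other comparisons) and list members. Of 12541 tested genes, 12128 (96.7%) matched GENCODE M21; positions of genes missing there came from RefSeq. Sequences were aligned with Biopython 1.88 and figures drawn with matplotlib 3.10.9. Scripts were tested on simulated data. Alternatives were other scalings, pseudocounts, filters, subsets and leaving out each library.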

Additional observations from a re-analysis of the deposited data

Results flagged for a closer look

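For 11 values 1 library lay far from the rest of its state, by a gap to the nearest library that was large against the range of the state (Dixon's criterion). Chance alone flags about 1 in 20 groups. The number of groups screened is not given here, so the 11 cannot be set against that rate. Of these, 8 were in rFibcd1 library 56 of the high state. It had a ribosomal protein share of 3.108% (next 2.518%), Hist1h2al at 67.74 TPM (next 19.02), Capza1 at 16.04 TPM (next 11.01) and Rpl34 at 38.17 TPM (next 29.92). Tmem45b was at 107.6 TPM there (next 35.57), Mndal at 27.88 TPM (next 16.6) and Gm3608 at 34.57 TPM (next 23.31), while Kbtbd12 was lowest at 42.07 TPM (next 51.43). In the high state rFibcd1 library 50 was highest for Metap1d at 8.166 TPM (next 7.217). In the low state mock library 63 was highest for Cd300lh at 23.72 TPM (next 13.89), and mock library 67 lowest for Hist1h2al at 4.584 TPM (next 26.67).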

How the results depend on the processing

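The state difference in non-cachectic diaphragm gave 1481 calls with median-ratio scaling, 1550 with quantile normalization, 1515 with mitochondrial genes left out, 605 in mock libraries alone, 1434 in one fit of 39 diaphragm libraries, 173 at a log2 difference of at least 1 and 187 at the study's thresholds, and 3225 (without rFibcd1 library 58) to 5068 (without mock library 65) with 1 library left out. The cachectic state difference gave 4294 at a mean TPM of at least 5, 1929 with median-ratio scaling, 873 with quantile normalization, and 769 (without rFibcd1 library 11) to 7098 with 1 left out. The interaction of state and treatment gave 0 to 1. The interaction of state and melanoma gave 903 of 14302 calls (6.31%), 1399 with a pseudocount of 0.1, 293 without a filter, 123 with median-ratio scaling, 3 with quantile normalization, 2895 with mitochondrial genes left out, 6568 with array weights, and 0 (without rFibcd1 library 11) to 4212 with 1 left out. The comparison of rFibcd1 with mock gave 1453 without a filter, 314, 229 and 573 under the same 3 scalings, 5362 with array weights, 1489 with state as a term, 3 and 96 in high-state and low-state libraries alone, and 936 (without mock library 62) to 3844 (without rFibcd1 library 58). In mock libraries alone, 3 high and 6 low, the differences in mitochondrial, top-10 and ribosomal protein shares were -4.227, -3.405 and 0.2003 points. None passed adjustment, although the ribosomal protein share did not overlap and had the lowest p that so few libraries allow. The difference in genes above 0 turned to -40.33 there, and in rFibcd1 libraries alone it was 498 and passed. With 1 library left out the 4 differences were -5.702 to -4.763, -4.928 to -4.014, 0.300 to 0.4161 and 196.1 to 361.5. The 62 two-state genes became 38 at a mean TPM of at least 5, 57 with median-ratio scaling (50 shared), 88 with mitochondrial genes left out (57 shared), 84 with a pseudocount of 0.1, 70 without a filter and 59 to 72 with 1 library left out. The causes were not tested. The alternatives for the two-state genes (the cachectic ones included), the gene lists within each treatment and the limb-muscle gap were chosen after seeing the data. No paired analysis was possible because each column number occurs once in the diaphragm, so that the groups compared share none. Unknown depth limits what can be said of genes listed at 0.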
